A study of Homo sapiens with 24 samples.

Results

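HCC4006 cells labelled YAP1 knockout (YAP1 KO) were compared with control cells (CTRL) of the same line after combined inhibition of EGFR and MEK. HCC4006 is an established lung adenocarcinoma line that carries an activating EGFR mutation. The comparison used 6 of the 24 mRNA sequencing libraries of the study, 3 YAP1 KO and 3 CTRL, and every gene row that reached 1 FPKM in at least 3 of these 6 libraries, which left 12557 of 25365 rows. FPKM counts fragments per kilobase of a transcript relative to all mapped fragments of the library. Under OT, both genotypes received osimertinib at 100 nM, an inhibitor of mutant EGFR, together with trametinib at 30 nM, an inhibitor of MEK, for 24 hours. YAP1 KO and CTRL cells of HCC4006 under DMSO, the solvent, are set beside them with 3 libraries each, and so are YAP1 KO and CTRL cells of the lung cancer line PC9 under the same OT treatment. The remaining libraries were PC9 cells under DMSO. The cells of each genotype were plated in triplicate dishes, per the design text, so the p-values measure the spread between dishes. The labels do not say whether the YAP1 KO cells were a clone or a pool, and they give the controls only as CTRL. The YAP1 KO columns of the deposited values carry a different tag in each line, which the labels do not explain. In comparisons with PC9, cell line and knockout therefore cannot be told apart.

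YAP1 is the coactivator of transcription that the Hippo pathway holds in check. The kinases MST1/2 and LATS1/2 phosphorylate it and keep it in the cytoplasm. When they are inactive, YAP1 and its paralogue TAZ, the product of WWTR1, enter the nucleus and bind the TEAD transcription factors, which often sit on DNA together with AP-1. Known targets encode matricellular proteins, cytoskeletal and adhesion proteins, growth factors and inhibitors of the pathway itself. In EGFR-mutant lung cancer YAP1 is known for its part in the survival of cells under EGFR and MEK inhibitors.

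Promoter sequences are shown for 4 of the genes with large differences, because these genes are among the largest decreases described below and their promoters hold the motifs of TEAD or AP-1. They come from RefSeq (GRCh38.p14) and hold the 250 bases before the gene start. Capitals mark the TEAD motif GGAATG (searched on both strands, so also as CATTCC) and the AP-1 motif TGANTCA. The CTGF promoter (RefSeq symbol CCN2) lies at chr6:131951373-131951622 on the minus strand, ANKRD1 at chr10:90921088-90921337 on the minus strand, CPA4 at chr7:130292911-130293160 on the plus strand and THBS1 at chr15:39580829-39581078 on the plus strand.
CTGF: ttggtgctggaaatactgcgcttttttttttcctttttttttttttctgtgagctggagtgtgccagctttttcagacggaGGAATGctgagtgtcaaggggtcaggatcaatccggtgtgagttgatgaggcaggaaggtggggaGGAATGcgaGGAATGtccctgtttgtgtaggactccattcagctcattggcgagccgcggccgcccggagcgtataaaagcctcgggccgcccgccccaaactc
ANKRD1: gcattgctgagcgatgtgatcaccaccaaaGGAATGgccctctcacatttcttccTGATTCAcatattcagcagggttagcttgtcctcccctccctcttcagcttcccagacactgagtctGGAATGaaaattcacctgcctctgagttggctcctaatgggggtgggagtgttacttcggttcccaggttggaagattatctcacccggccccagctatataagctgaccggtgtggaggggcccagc
CPA4: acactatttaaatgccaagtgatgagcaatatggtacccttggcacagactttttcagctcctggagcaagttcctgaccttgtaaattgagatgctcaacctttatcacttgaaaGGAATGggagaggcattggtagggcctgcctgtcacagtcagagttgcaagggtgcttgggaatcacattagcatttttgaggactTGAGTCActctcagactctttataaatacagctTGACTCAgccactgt
THBS1: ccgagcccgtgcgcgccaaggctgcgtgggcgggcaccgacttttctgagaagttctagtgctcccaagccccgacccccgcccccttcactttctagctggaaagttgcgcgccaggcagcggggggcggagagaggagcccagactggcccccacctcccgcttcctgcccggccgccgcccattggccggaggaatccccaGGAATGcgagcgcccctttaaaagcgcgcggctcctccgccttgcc
CTGF held 3 TEAD motifs, which begin at positions -169, -104 and -95 from the gene start. ANKRD1 held TEAD motifs at -220 and -128 with an AP-1 motif at -195, CPA4 held a TEAD motif at -134 and 2 AP-1 motifs at -48 and -15, and THBS1 held a TEAD motif at -46. RefSeq windows, which reach 50 bases past the gene start, were matched for 16 of the 22 genes of the YAP/TEAD target signature, and 7 of the 16 held the TEAD motif (43.8%). Among rows at least 2-fold lower in YAP1 KO cells the motif was present in 30 of 142 windows (21.1%), and among rows at least 2-fold higher in 2 of 42 (4.76%). It was present in 1061 of 9951 windows of all rows tested (10.7%) and in 3836 of the 27305 windows of the table (14.0%). The AP-1 motif was found in 2 of 16 signature windows (12.5%), 12 of 142 lower windows (8.45%), 5 of 42 higher windows (11.9%) and 462 of 9951 windows of all rows tested (4.64%). These shares describe letters in a window and were not tested.

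The targeted gene followed the labels. YAP1 was at 5.97, 6.34 and 6.07 FPKM in YAP1 KO cells, against 16.9, 13.9 and 15.6 FPKM in CTRL cells. The 3 YAP1 KO libraries lay close together and below every CTRL library, at 39.6% of the CTRL mean. The log2 difference was -1.20 (SE 0.079, adjusted p = 1.17e-07). Under DMSO YAP1 was at 4.23, 4.59 and 3.90 FPKM in YAP1 KO cells, against 18.5, 16.5 and 19.7 FPKM in CTRL cells, a difference of -1.88 (adjusted p = 1.06e-08), so the difference was smaller under OT, by 0.67 (adjusted p = 0.00108). With 1 value per gene, the exons behind the remaining YAP1 signal cannot be seen. All differences here are YAP1 KO minus CTRL on the scale log2(FPKM + 1), which understates changes of low genes. They were tested with limma across all 12 HCC4006 libraries, with Benjamini-Hochberg adjustment over the 12557 rows, and a row was called at an adjusted p under 0.05.

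The 6 libraries summed to between 538130 and 561837 FPKM in YAP1 KO cells and between 507120 and 574160 FPKM in CTRL cells. Pairwise correlations over rows were 0.985 to 0.992 within a group and 0.968 to 0.975 between the groups. CTRL replicate 1 stood apart, with the lowest FPKM sum and a relative depth of 1.36 times that of CTRL replicate 2, and in 105 of the 11726 rows above the filter in all 6 libraries it was at least 1.5 times both other CTRL libraries. The same count was 9 to 21 for the other libraries. The median coefficient of variation was 4.26% in YAP1 KO cells and 8.39% in CTRL cells. Lung adenocarcinoma cell markers were present in both groups, and all 10 were tested, with summed levels of 3235 to 3283 FPKM in YAP1 KO and 4454 to 4829 FPKM in CTRL libraries. Of 13 immune markers 4 (CD3D, CD2, MS4A1 and NKG7) were at 0 FPKM in all 6 libraries, and so were PECAM1 and EMCN of 8 endothelial markers. Other markers of these lists were present. The immune list summed to 113 to 116 FPKM in YAP1 KO and 88.0 to 91.0 FPKM in CTRL libraries, mostly from CD68. Of the 8 endothelial markers, 6 were under 1 FPKM in every YAP1 KO library and 6 in every CTRL library. In such bulk libraries, fewer cells that express a gene and less RNA per cell cannot be told apart.

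Loss of YAP1 under OT went with lower levels of YAP/TEAD targets, of matrix, cytoskeletal and adhesion genes and of several growth factors and receptors, and with higher levels of quiescence and stress response genes. Of 12557 rows, 3569 were higher (28.4%) and 2067 lower (16.5%) in YAP1 KO cells, 44.9% in all. These shares are the background for the gene list counts under OT. For list counts under DMSO the background is 9.01% higher and 8.67% lower. For those of the difference between treatments it is 11.0% higher and 8.18% lower. Most of the differences under OT were small, with a median size of 0.33 among called rows. At least 2-fold differences were mostly decreases, 202 rows lower (1.61%) against 61 higher (0.486%). The YAP1 KO and CTRL libraries did not overlap in 6593 rows (52.5%). Median-of-ratios scaling changed the split of calls to 2684 higher and 2528 lower, a share of 51.5% higher in place of 63.3%. With only the 6 HCC4006 OT libraries in the fit, 2999 rows were called higher and 1732 lower. The filter admitted 104 rows through YAP1 KO libraries alone and 149 through CTRL libraries alone. The direction of such rows was fixed by their admission, also where they are counted in a gene list.

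**Figure D1:**
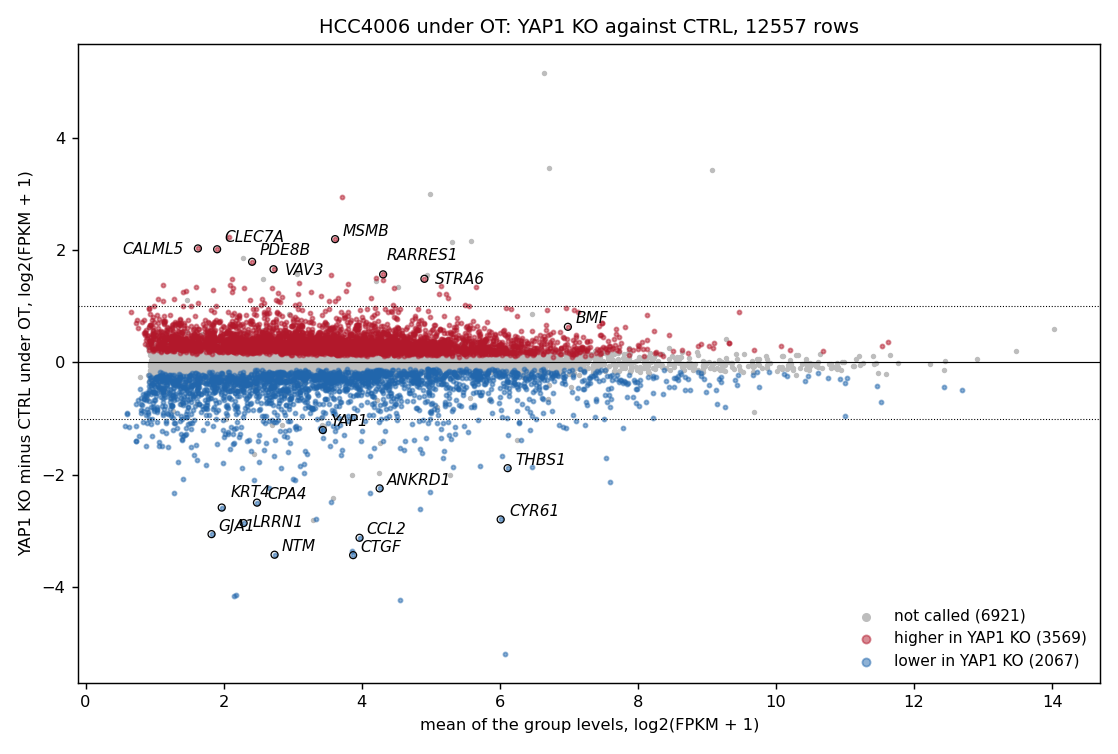
Difference between YAP1 KO and CTRL cells under OT, in log2(FPKM + 1), against the mean of the group levels for the 12557 rows tested in HCC4006. Red points are rows higher and blue points rows lower in YAP1 KO cells, and dotted lines mark 2-fold. CTGF lies at -3.44, NTM at -3.43 and YAP1 at -1.20, and the unlabelled points furthest from 0 are mostly rows of short RNAs with large spread.

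Among the 10 lowest called rows, CTGF encodes a matricellular growth factor and was at 3.11, 3.62 and 3.65 FPKM in YAP1 KO cells, against 43.0, 48.3 and 50.6 FPKM in CTRL cells. The 3 YAP1 KO libraries were close together and far below every CTRL library. The difference was -3.44 (SE 0.065, adjusted p = 1.52e-12), and the YAP1 KO mean was 7.32% of the CTRL mean. CYR61, a matricellular relative of CTGF, was at 23.0, 23.4 and 23.9 FPKM in YAP1 KO cells, against 159, 178 and 171 FPKM in CTRL cells, a difference of -2.80 (SE 0.046, adjusted p = 8.04e-13). NTM, which encodes the neural adhesion protein neurotrimin, was at 0.998, 1.12 and 0.983 FPKM in YAP1 KO cells, against 20.8, 20.1 and 21.8 FPKM in CTRL cells. The chemokine gene CCL2 was at 3.22, 5.20 and 4.54 FPKM in YAP1 KO cells, against 40.1, 46.8 and 48.1 FPKM in CTRL cells. Neither gene overlapped between the groups, with differences of -3.43 (adjusted p = 1.52e-12) for NTM and -3.13 (adjusted p = 8.34e-10) for CCL2. The gap junction gene GJA1 (connexin 43) was near 0, at 0.156, 0.232 and 0.292 FPKM in YAP1 KO cells, against 9.57, 8.92 and 9.20 FPKM in CTRL cells, and differed by -3.06 (SE 0.081, adjusted p = 3.14e-11). LRRN1, a leucine-rich repeat membrane protein of neurons, differed by -2.86, KRT4, a keratin of squamous epithelia, by -2.59 and CPA4, a secreted carboxypeptidase, by -2.50. All of these genes were below every CTRL library in each YAP1 KO library. GJA1 and KRT4 passed the filter through CTRL libraries alone, so their direction was fixed by admission. The remaining rows of the 10 were SNAR-G1 and SNAR-B1, short RNAs of a family of near-identical copies. SNAR-G1 also passed through CTRL libraries alone. SNAR-G1 was listed at 0 FPKM in all YAP1 KO libraries, against 10.6, 14.4 and 31.7 FPKM in CTRL cells, and SNAR-B1 overlapped between the groups and lost its call in 9 of 12 fits with a library left out, with -1.14 (adjusted p = 0.174) without YAP1 KO replicate 2, so both are uncertain.

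Among the 10 highest called rows, MSMB, the secreted beta-microseminoprotein, was at 25.8, 23.1 and 26.5 FPKM in YAP1 KO cells, against 3.82, 5.95 and 4.46 FPKM in CTRL cells, a difference of 2.2 (SE 0.18, adjusted p = 7.78e-07). CALML5, a calmodulin-like protein of differentiating skin, was at 4.31, 5.66 and 5.75 FPKM in YAP1 KO cells, against 0.487, 0.831 and 0.274 FPKM in CTRL cells. The beta-glucan receptor gene CLEC7A was at 7.78, 5.13 and 6.83 FPKM in YAP1 KO cells, against 0.796, 0.725 and 1.04 FPKM in CTRL cells. Both were under or near 1 FPKM in CTRL cells and above 4 FPKM in each YAP1 KO library. The differences were 2.03 and 2.02 (adjusted p = 1.85e-07 and 2.99e-08). CALML5 passed the filter through YAP1 KO libraries alone, so its direction was fixed by admission. The cAMP phosphodiesterase gene PDE8B differed by 1.80, the guanine nucleotide exchange factor VAV3 by 1.66, the retinoid-responsive RARRES1 by 1.57, the leucine zipper gene LUZP2 by 1.55, LYPD3, a surface protein of the Ly6 family, by 1.51 and the retinol transporter gene STRA6 by 1.49. STRA6 was at 48.3, 50.2 and 49.6 FPKM in YAP1 KO cells, against 17.2, 16.2 and 17.3 FPKM in CTRL cells. HYPK also belonged to the 10, at 6.62, 12.6 and 4.02 FPKM in YAP1 KO cells, against 0.106, 0.134 and 2.91 FPKM in CTRL cells, but CTRL replicate 3 stood far above its 2 companions. Its row is uncertain, since the table also holds a readthrough row (SERF2-C15ORF63) that covers the same gene.

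**Figure D2:**
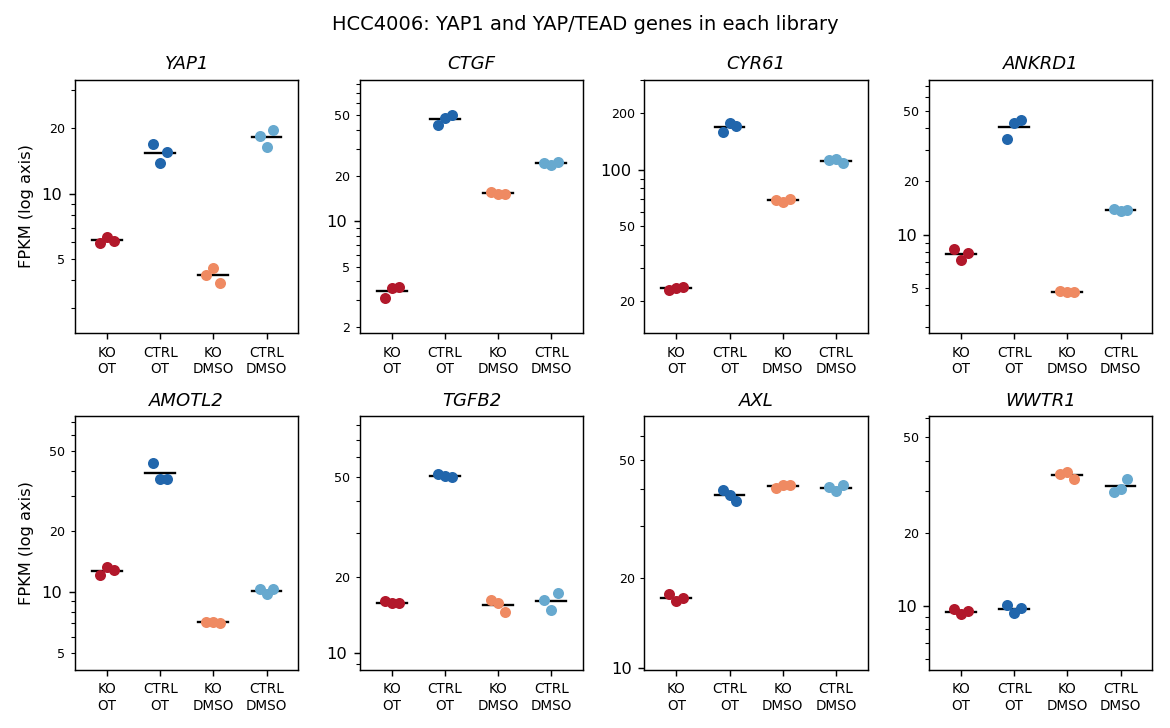
FPKM on log axes of YAP1, 6 YAP/TEAD target genes and WWTR1 in the 12 HCC4006 libraries, with YAP1 KO left of CTRL under OT and then under DMSO. Points are libraries and bars are group means. CTGF and CYR61 are lowest in YAP1 KO cells under OT, TGFB2 and AXL differ between the genotypes under OT with overlapping libraries under DMSO, and WWTR1 overlaps between the genotypes under OT.

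The YAP/TEAD target signature, a published list of 22 targets, moved in a single direction. Of 21 tested members 20 were lower in YAP1 KO cells, none was higher, and 12 were at least 2-fold lower. The median difference was -1.04, against 0.066 over all rows tested. ANKRD1, a cardiac ankyrin repeat protein used as a reporter of YAP activity, was at 8.28, 7.17 and 7.88 FPKM in YAP1 KO cells, against 34.9, 42.9 and 44.5 FPKM in CTRL cells, a difference of -2.25 (SE 0.078, adjusted p = 3.91e-10). The tissue factor gene F3 was at 4.37, 2.87 and 3.45 FPKM in YAP1 KO cells, against 18.2, 14.9 and 17.0 FPKM in CTRL cells, and TGFB2, a TGF-beta ligand, at 16.1, 15.7 and 15.7 FPKM in YAP1 KO cells, against 51.1, 50.3 and 49.9 FPKM in CTRL cells. Their groups were apart, with differences of -1.97 and -1.61 (adjusted p = 9.54e-09 and 4.06e-10). AXL, a receptor tyrosine kinase linked to resistance to EGFR inhibitors, was at 17.6, 16.7 and 17.2 FPKM in YAP1 KO cells, against 39.5, 38.0 and 36.4 FPKM in CTRL cells, a difference of -1.10 (SE 0.043, adjusted p = 1.15e-09). GADD45A, a stress-induced growth arrest gene, differed by -1.58, the insulin-like growth factor binding protein IGFBP3 by -1.17, FJX1, a homologue of the fly kinase four-jointed, by -1.12, the kinase NUAK2 by -1.04, CCDC80 by -1.02, the ecto-nucleotidase NT5E by -0.90 and CRIM1, which binds BMPs, by -0.83. The membrane repair gene MYOF (-0.62), the exchange factors DOCK5 (-0.55) and ARHGEF17 (-0.50), ASAP1 (-0.49), the phosphatase PTPN14 (-0.46) and the Hippo kinase LATS2 (-0.35) had smaller decreases. Without CTRL replicate 1, DOCK5 was at -0.37 and ARHGEF17 at -0.32, both still called. FOXF2 was at 0.014 (adjusted p = 0.913), with overlapping groups. RBMS3, the remaining gene, did not meet the filter and was at 0.841, 0.857 and 0.784 FPKM in YAP1 KO cells, against 1.19, 0.978 and 0.970 FPKM in CTRL cells. This list was chosen with earlier results of these libraries known, so its direction is a description.

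The decreases of the signature were mostly larger under OT than under DMSO. Under DMSO 8 of the 21 members were lower, with a median of -0.14, while over all rows 9.01% were higher and 8.67% lower. The test of the difference between the treatments called 16 of the 21 as lower under OT, and no member as higher, against 8.18% and 11.0% of all rows. CTGF differed by -0.63 under DMSO, CYR61 by -0.70 and ANKRD1 by -1.36, and the OT difference exceeded these by -2.80, -2.10 and -0.88. TGFB2 (-0.049, adjusted p = 0.614), AXL (0.016, adjusted p = 0.85), FJX1 (0.059, adjusted p = 0.407) and NT5E (0.0079, adjusted p = 0.957) were not called under DMSO. For these 4 the difference between treatments was -1.56, -1.12, -1.18 and -0.91. CCDC80 and LATS2 (-0.17 and -0.20) were not called in that test, and neither were PTPN14, ARHGEF17 and FOXF2. In PC9 under OT, CTGF differed by -1.08, CYR61 by -1.22, TGFB2 by -0.93, AXL by -0.35 and F3 by -0.52. The difference was larger in HCC4006 for each of these genes, by -2.36, -1.58, -0.69, -0.75 and -1.45 (adjusted p at most 6.73e-07). FJX1 and NUAK2 were not called as different between the lines (0.12 and -0.037, adjusted p = 0.183 and 0.831). In the test between lines 25.7% of 11255 rows were higher and 17.3% lower, 0.720% and 1.60% by at least 2-fold.

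**Figure D3:**
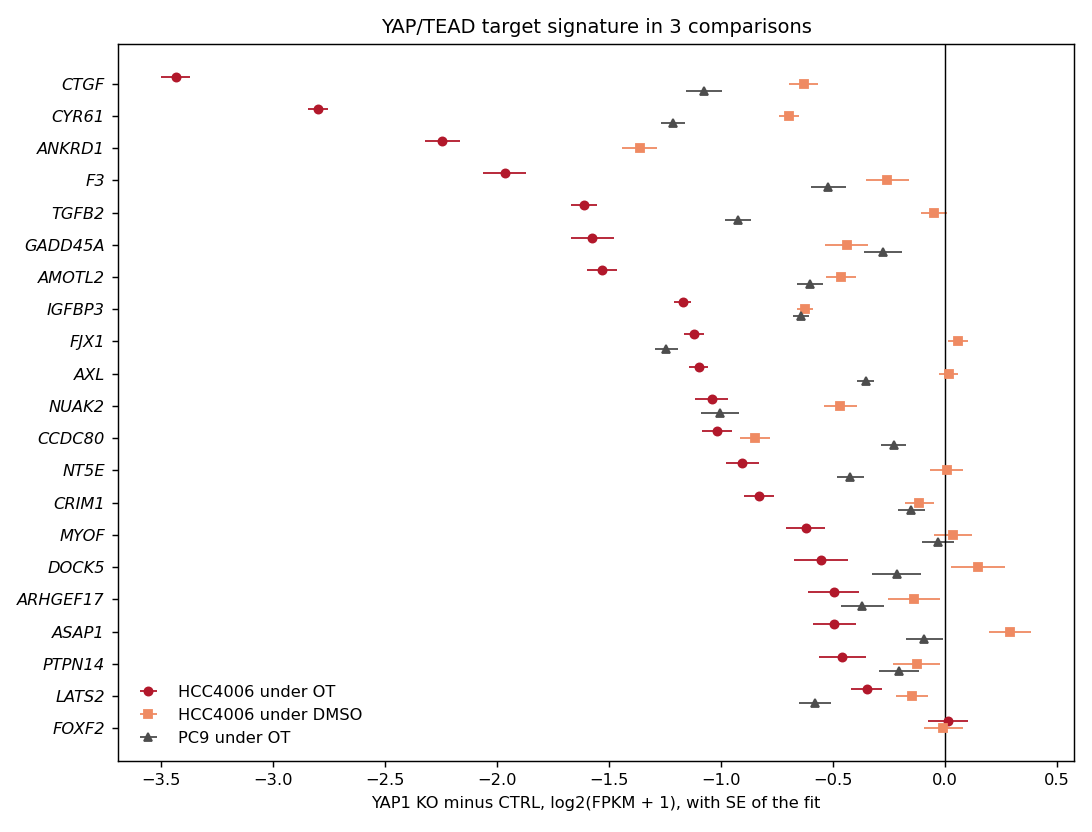
YAP1 KO minus CTRL for the 21 tested genes of the YAP/TEAD target signature, in log2(FPKM + 1) with the SE of the fit, in HCC4006 under OT (circles), HCC4006 under DMSO (squares) and PC9 under OT (triangles, where measured). The OT differences in HCC4006 run from -3.44 for CTGF to 0.01 for FOXF2 and lie left of the DMSO differences for every gene but FOXF2.

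Among the factors themselves, the paralogue WWTR1 was at 9.67, 9.20 and 9.47 FPKM in YAP1 KO cells, against 10.0, 9.33 and 9.75 FPKM in CTRL cells, with overlapping groups and a difference of -0.035 (SE 0.054, adjusted p = 0.629). TEAD4 was lower, at 3.74, 4.93 and 4.71 FPKM in YAP1 KO cells, against 6.43, 6.98 and 8.31 FPKM in CTRL cells, by -0.59 (SE 0.095, adjusted p = 0.000271), and so was the cofactor VGLL1 (-1.07), which lay under 1 FPKM in each YAP1 KO library. TEAD1 (-0.24, adjusted p = 0.0523), TEAD2 (0.065), TEAD3 (-0.065) and VGLL4 (0.076) were not called. TEAD1 was called as lower after median-of-ratios scaling (-0.29, adjusted p = 0.0201) and was at -0.13 (adjusted p = 0.186) without CTRL replicate 1. In all, 3 of 9 factors were lower and none higher. The 3 include the targeted YAP1 itself, and VGLL1, which passed the filter through CTRL libraries alone. Of 27 Hippo kinases and upstream regulators 15 were lower and 5 higher, with a median of -0.35. Decreases of over 2-fold were seen in AMOTL2, an angiomotin that holds YAP1 in the cytoplasm, at 12.2, 13.3 and 12.8 FPKM in YAP1 KO cells, against 43.7, 36.6 and 36.2 FPKM in CTRL cells, and in WWC1 (KIBRA), at 7.19, 7.93 and 7.47 FPKM in YAP1 KO cells, against 22.2, 18.7 and 18.9 FPKM in CTRL cells. Both groups of libraries were apart in these genes, with differences of -1.53 and -1.29. The LIM proteins WTIP and AJUBA, which bind LATS kinases, differed by -1.46 and -1.12, and NF2 (merlin) by -0.44. The kinases LATS1 and STK4 (MST1) were higher, by 0.23 and 0.32.

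Genes of the extracellular matrix, the cytoskeleton and adhesion were mostly lower in YAP1 KO cells. Of 32 matrix genes 21 were lower and 5 higher, with a median of -0.53. The collagen gene COL1A2 was at 2.99, 2.67 and 3.05 FPKM in YAP1 KO cells, against 14.8, 16.0 and 15.5 FPKM in CTRL cells, THBS1, a secreted activator of TGF-beta, at 35.1, 35.9 and 33.9 FPKM in YAP1 KO cells, against 143, 128 and 125 FPKM in CTRL cells and LOX, which crosslinks collagen, at 3.75, 3.26 and 3.59 FPKM in YAP1 KO cells, against 15.6, 14.3 and 16.0 FPKM in CTRL cells. The YAP1 KO libraries lay well below the CTRL libraries in all 3, with differences of -2.07, -1.88 and -1.84 (adjusted p = 4.06e-10, 3.14e-11 and 5.6e-10). Fibronectin (FN1) differed by -1.29, fibrillin (FBN1) by -1.23 and SPARC by -0.94, while EDIL3, an integrin ligand, was 1.19 higher and COL7A1 0.57 higher. Integrin subunits were lower in 9 of 12 cases and higher in 2, led by ITGA5, the fibronectin receptor subunit, at 2.13, 2.14 and 2.13 FPKM in YAP1 KO cells, against 5.01, 4.38 and 4.21 FPKM in CTRL cells, a difference of -0.82 (SE 0.059, adjusted p = 2.66e-07). ITGB3, which passed the filter through CTRL libraries alone, differed by -0.76. The laminin receptor subunits ITGA6 and ITGB4 differed by -0.71 and -0.68, whereas ITGA2 and ITGAV were 0.54 and 0.22 higher.

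Of 40 actin cytoskeleton and focal adhesion genes 30 were lower and 2 higher, with a median of -0.45. The filter admitted 3 of the 40 through 1 group alone, with CNN1 among them through CTRL. CNN1 (calponin) was at 0.0789, 0.0416 and 0.121 FPKM in YAP1 KO cells, against 3.69, 4.72 and 4.92 FPKM in CTRL cells, and MYL9, a myosin light chain, at 1.76, 1.74 and 2.26 FPKM in YAP1 KO cells, against 12.2, 14.0 and 12.1 FPKM in CTRL cells. Each YAP1 KO library was below every CTRL library, and the differences were -2.33 and -2.24 (adjusted p = 5.6e-10 and 1.22e-09). TAGLN (transgelin) differed by -1.88, the actin crosslinker ACTN1 by -1.38, the non-muscle myosin MYH9 by -1.11, vinculin (VCL) by -1.06 and filamin A (FLNA) by -1.04. ACTB, which encodes beta-actin, was -0.71. Genes of caveolae, membrane pits that flatten under tension, were lower in 7 of 8 cases. CAV1 was at 45.8, 43.8 and 40.1 FPKM in YAP1 KO cells, against 107, 105 and 112 FPKM in CTRL cells, and PTRF (cavin-1) at 23.0, 24.0 and 23.5 FPKM in YAP1 KO cells, against 61.6, 58.3 and 58.2 FPKM in CTRL cells, with differences of -1.30 and -1.30, and CAV2 and PRKCDBP differed by -0.71 and -0.80. Only PACSIN2 of the 8 was higher (0.18). Of 12 EMT factors and mesenchymal genes 7 were tested, of which 5 were lower and 1 higher. SNAI2 (Slug), a transcription factor of EMT, was at 7.12, 7.81 and 7.41 FPKM in YAP1 KO cells, against 12.6, 13.2 and 13.4 FPKM in CTRL cells, a difference of -0.74 (SE 0.075, adjusted p = 6.68e-06), and N-cadherin (CDH2) was -0.79. SNAI1 (Snail), near the filter and admitted through YAP1 KO libraries alone, was 0.50 higher. Fibroblast markers summed to 7.32 to 7.77 FPKM in YAP1 KO and 21.0 to 22.1 FPKM in CTRL libraries, with COL1A2 and THY1 lower, LUM and PDPN at 0 in YAP1 KO cells and 7 of 10 under 1 FPKM in every CTRL library. The part of other cells in these decreases was not tested.

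Epithelial genes divided. Of 28 junction genes 13 were higher and 7 lower, with a median of 0.13. OVOL1, a transcription factor of epithelial differentiation, was at 4.66, 4.24 and 4.99 FPKM in YAP1 KO cells, against 1.36, 1.11 and 1.46 FPKM in CTRL cells, a difference of 1.29 (SE 0.096, adjusted p = 3.75e-07). The tight junction genes TJP3, CLDN3 and OCLN were 0.68, 0.47 and 0.44 higher, and the splicing regulator ESRP1 0.42 higher. GJA1, which passed the filter through CTRL libraries alone, and CLDN1 were lower (-3.06 and -0.75). E-cadherin (CDH1) was not called (0.018). Keratins were lower in 9 of 11 tested of 18, with a median of -1.13. Of the 11, 3 passed the filter through 1 group alone, with KRT4 and KRT17 among them through CTRL. KRT7, a keratin of simple epithelia, was at 1444, 1490.4 and 1452 FPKM in YAP1 KO cells, against 2759.8, 2904 and 2858 FPKM in CTRL cells, a difference of -0.96 (SE 0.06, adjusted p = 7.57e-08). KRT16, KRT80, KRT17 and KRT18 differed by -1.39, -1.38, -1.37 and -1.16, and KRT15 was 0.66 higher. KRT16 and KRT17 belong to families with near-identical pseudogenes. Of the lung adenocarcinoma markers 6 were lower and 1, MUC1, was higher (0.50). Lung lineage genes were lower in 5 of 10 cases and higher in 3. The alveolar protease gene NAPSA was at 1.86, 1.55 and 1.65 FPKM in YAP1 KO cells, against 5.76, 6.10 and 7.09 FPKM in CTRL cells, HOPX, a gene of alveolar type 1 cells, differed by -1.21, and the lineage factor NKX2-1 by -0.29, while the pioneer factor FOXA1 was 0.54 higher.

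**Figure D4:**
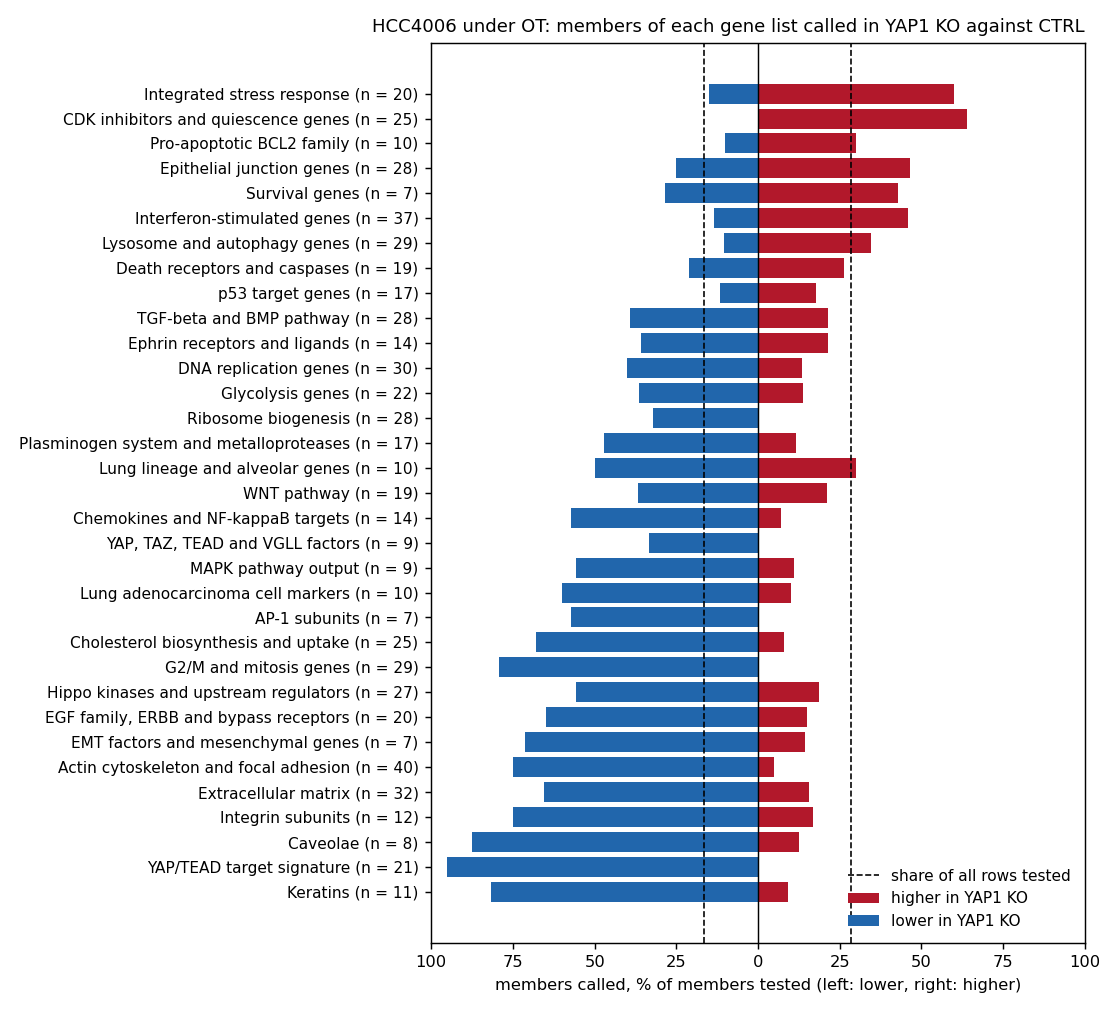
Share of tested members of each gene list that was lower (blue, left) or higher (red, right) in YAP1 KO than in CTRL cells of HCC4006 under OT, for the 33 lists with at least 7 members tested, ordered by their median difference. Dashed lines are the shares of all rows, 16.5% lower and 28.4% higher. Keratins, the YAP/TEAD signature and caveolae lie lowest, and the integrated stress response list lies highest.

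Of 10 tested pro-apoptotic BCL2 family genes 3 were higher and 1 lower, against 28.4% and 16.5% of all rows, so the list as a whole lay near the background. BMF, a BH3-only activator of apoptosis, was at 159, 159 and 152 FPKM in YAP1 KO cells, against 112, 97.7 and 92.8 FPKM in CTRL cells. All YAP1 KO libraries were above all CTRL libraries, and the difference was 0.64 (SE 0.064, adjusted p = 5.55e-06). Under DMSO BMF was at 7.997, 8.07 and 8.78 FPKM in YAP1 KO cells, against 8.89, 8.96 and 9.52 FPKM in CTRL cells, a difference of -0.12 (adjusted p = 0.214), and the difference between treatments was 0.76 (adjusted p = 8.07e-05). In PC9 under OT BMF differed by 1.92, so the HCC4006 difference was smaller, by -1.28 (adjusted p = 5.82e-10). BCL2L11, which encodes the BH3-only protein BIM, was at 8.63, 8.27 and 8.79 FPKM in YAP1 KO cells, against 6.84, 5.38 and 5.22 FPKM in CTRL cells, a difference of 0.50 (SE 0.089, adjusted p = 0.000647). The difference in PC9 was 0.59, and the lines were not called as different (-0.098, adjusted p = 0.478). BBC3 (PUMA) was at 45.9, 45.4 and 52.7 FPKM in YAP1 KO cells, against 28.0, 40.9 and 45.1 FPKM in CTRL cells, and the difference of 0.35 was not called (adjusted p = 0.0669). It was called when the libraries were set to equal sums (0.36, adjusted p = 0.0259), and it was 0.15 (adjusted p = 0.255) without CTRL replicate 1. BAK1 (0.16) and BID (-0.15) were called, but neither call held in every scaling, and each was lost in 4 of 12 fits with a library left out.

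Survival genes were higher in 3 of 7 cases and lower in 2. BCL2L1, which encodes BCL-XL, was at 25.4, 29.5 and 28.9 FPKM in YAP1 KO cells, against 42.8, 43.4 and 52.6 FPKM in CTRL cells, a difference of -0.70 (SE 0.074, adjusted p = 7.93e-06). Its level under DMSO was 79.2, 78.9 and 82.5 FPKM in YAP1 KO cells, against 80.6, 80.9 and 78.5 FPKM in CTRL cells, with a difference of 0.0035, and the treatments differed by -0.71. MCL1 was at 111, 110.4 and 106 FPKM in YAP1 KO cells, against 109.7, 107 and 111 FPKM in CTRL cells, with overlapping groups and a difference of 0.0013 (SE 0.041, adjusted p = 0.984). CFLAR, the inhibitor of caspase-8, was lower (-0.64) and the inhibitors of apoptosis BIRC2 and BIRC3 were higher (0.41 and 0.35). Death receptor and caspase genes were higher in 5 of 19 cases and lower in 4, near the shares of all rows, with a median of 0.024 that turned to -0.031 after median-of-ratios scaling. The death ligand gene TNFSF10 (TRAIL) was at 245, 236 and 251 FPKM in YAP1 KO cells, against 159.7, 170.3 and 182 FPKM in CTRL cells, and DAPK2, a death-associated kinase, at 36.5, 37.1 and 37.4 FPKM in YAP1 KO cells, against 20.8, 22.3 and 21.0 FPKM in CTRL cells. Both were higher in each YAP1 KO library, by 0.51 and 0.77. DAPK1 was 0.51 higher, while the receptor gene FAS was lower (-0.90).

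**Figure D5:**
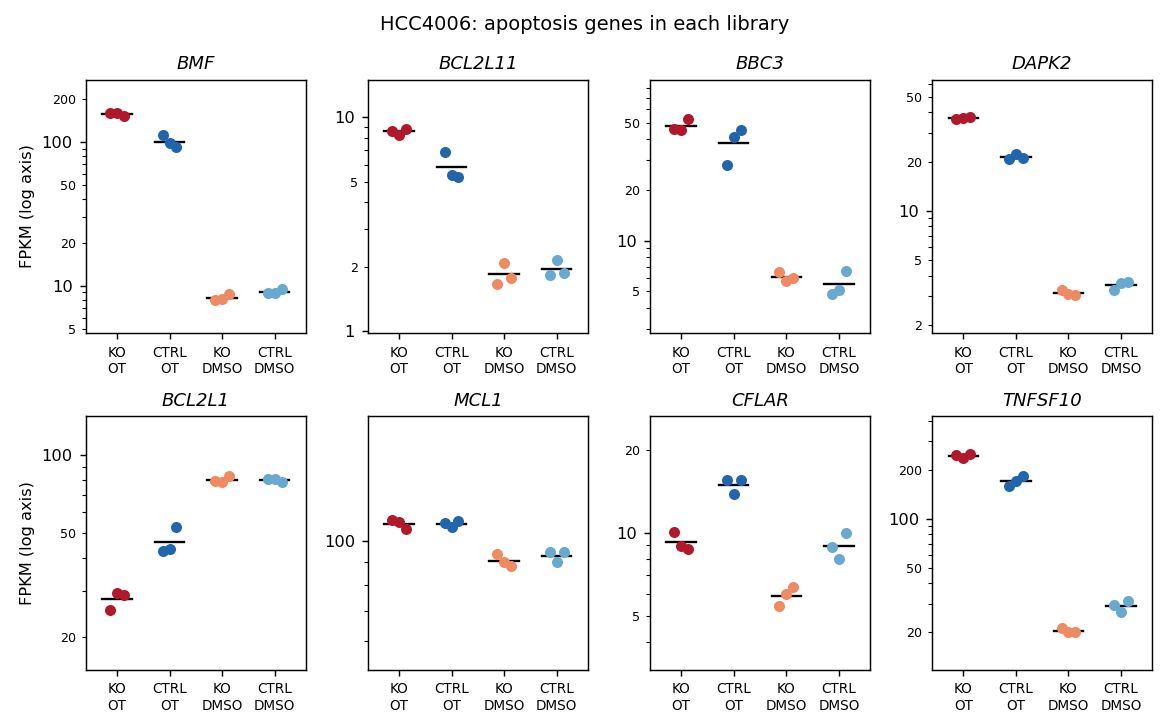
FPKM on log axes of 8 apoptosis genes in the 12 HCC4006 libraries, with YAP1 KO left of CTRL under OT and then under DMSO. Points are libraries and bars are group means. BMF, BCL2L11, DAPK2 and TNFSF10 are higher and BCL2L1 and CFLAR lower in each YAP1 KO library under OT than in any CTRL library, and MCL1 overlaps.

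Genes of the EGF family, ERBB receptors and receptors that can act beside EGFR were mostly lower, with EGFR itself in the list. Of 20 tested, 13 were lower and 3 higher, with a median of -0.40. The lower count was 14 after median-of-ratios scaling and 11 with equal sums. The filter admitted 3 of the 20 through 1 group alone, with HBEGF and NRG1 among them through CTRL. The receptor gene MET was at 2.87, 2.60 and 2.68 FPKM in YAP1 KO cells, against 9.39, 8.62 and 9.02 FPKM in CTRL cells, a difference of -1.43 (SE 0.057, adjusted p = 1.22e-09). HBEGF, an EGF receptor ligand, was at 0.253, 0.293 and 0.285 FPKM in YAP1 KO cells, against 2.44, 2.40 and 2.36 FPKM in CTRL cells, and NRG1, a ligand of ERBB3, at 0.597, 0.690 and 0.597 FPKM in YAP1 KO cells, against 3.40, 2.77 and 3.53 FPKM in CTRL cells. Both ligands were under 1 FPKM in each YAP1 KO library, and the differences were -1.41 and -1.37 (adjusted p = 2.74e-09 and 5.91e-08). ERBB3 was 0.60 higher, and the EGFR inhibitor protein gene ERRFI1 was -0.55. EGFR was at 8.77, 8.66 and 8.37 FPKM in YAP1 KO cells, against 18.4, 10.2 and 9.46 FPKM in CTRL cells. CTRL replicate 1 was well above every other library, and the difference of -0.45 (adjusted p = 0.0419) became -0.17 without it (adjusted p = 0.0208). The call was lost in 9 of 12 fits with a library left out (adjusted p = 0.0526 to 0.0973) and with equal sums (adjusted p = 0.0803). MET differed by -1.24 between the treatments and by -1.21 between the lines. Ephrin receptors and ligands were lower in 5 of 14 cases and higher in 3. The receptor gene EPHA2 was at 0.651, 0.717 and 0.667 FPKM in YAP1 KO cells, against 4.74, 4.32 and 4.83 FPKM in CTRL cells. It passed the filter through CTRL libraries alone and differed by -1.75 (SE 0.055, adjusted p = 1.54e-10). The ligand EFNB2 was at -0.96.

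Only 9 of 22 outputs of MAPK signalling passed the filter under OT, and 5 of these were lower and 1 higher. Of the 9, EPHA2 and FOSL1 passed through CTRL libraries alone. CCND1 (cyclin D1) was at 4.33, 4.45 and 4.41 FPKM in YAP1 KO cells, against 9.84, 7.42 and 6.68 FPKM in CTRL cells, a difference of -0.72 (SE 0.092, adjusted p = 4.39e-05). MYC was at 1.56, 1.09 and 1.47 FPKM in YAP1 KO cells, against 2.23, 1.62 and 1.90 FPKM in CTRL cells, a difference of -0.30 (adjusted p = 0.0153) that lost its call without CTRL replicate 1 (-0.22, adjusted p = 0.0527) or without YAP1 KO replicate 2 (-0.21, adjusted p = 0.0730). The channel gene KCNN4 was 0.91 higher. The phosphatase gene DUSP6 did not pass, at 0.139, 0.104 and 0.105 FPKM in YAP1 KO cells, against 0.860, 0.222 and 0.0575 FPKM in CTRL cells, with overlapping groups. Of 7 tested AP-1 subunits 4 were lower, with FOSL1 at -0.68, FOSL2 at -0.75, JUN at -0.31 and ATF3 at -0.31, and none was higher. The call of ATF3 was lost without CTRL replicate 2 (-0.27, adjusted p = 0.0623).

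Secreted regulators of other pathways were among the larger decreases. In the TGF-beta and BMP list 11 of 28 genes were lower and 6 higher. The BMP antagonist gene GREM1 was at 6.11, 7.24 and 7.02 FPKM in YAP1 KO cells, against 36.1, 40.1 and 38.3 FPKM in CTRL cells, a difference of -2.33 (SE 0.06, adjusted p = 3.14e-11). The follistatin family genes FSTL1 and FSTL3 differed by -1.20 and -1.06, while the BMP targets ID1 and ID2 were 0.60 and 0.75 higher and BAMBI, a pseudoreceptor, 1.02 higher. WNT pathway genes were lower in 7 of 19 cases and higher in 4. The WNT antagonist gene DKK1 was at 63.3, 65.0 and 63.0 FPKM in YAP1 KO cells, against 119.8, 133 and 133 FPKM in CTRL cells, a difference of -0.999 (SE 0.053, adjusted p = 1.77e-08), whereas under DMSO it was 0.66 higher in YAP1 KO cells (adjusted p = 4.68e-06). The ligand WNT7A was -1.17 and the receptor FZD7 0.96 higher. In the plasminogen and metalloprotease list 8 of 17 were lower and 2 higher. The collagenase gene MMP13 was 0.96 higher. Chemokines and NF-kappaB targets were lower in 8 of 14 tested of 26 and higher in 1. ICAM1, a leukocyte adhesion molecule, was at 6.46, 6.51 and 6.84 FPKM in YAP1 KO cells, against 23.5, 21.4 and 19.7 FPKM in CTRL cells, a difference of -1.56 (SE 0.07, adjusted p = 3.84e-09), and the cytokines LIF and IL11 differed by -1.02 and -0.89. IL11 was 0.51 higher in YAP1 KO cells under DMSO (adjusted p = 4.15e-05).

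Among cell cycle genes, those of G2/M and mitosis were mostly lower in YAP1 KO cells under OT. Of 29 G2/M and mitosis genes 23 were lower and none higher, with a median of -0.34. KIF23, a kinesin of cytokinesis, was at 1.45, 1.38 and 1.20 FPKM in YAP1 KO cells, against 3.54, 3.16 and 3.32 FPKM in CTRL cells, a difference of -0.89 (SE 0.056, adjusted p = 7.35e-08). UBE2C differed by -0.88, ANLN (anillin) by -0.85, BIRC5 (survivin) by -0.80 and the proliferation marker MKI67 by -0.42. Levels were low in both groups. MKI67 was at 0.706, 0.570 and 0.716 FPKM in YAP1 KO against 1.46, 1.22 and 1.03 FPKM in CTRL. It passed the filter through CTRL libraries alone, so its direction was fixed by admission. Under DMSO 13 of the 29 were higher in YAP1 KO cells and none lower, with a median of 0.26, and the difference between the treatments was called as lower in 23. KIF23 was 0.38 higher under DMSO and differed by -1.27 between the treatments. DNA replication genes were lower in 12 of 30 cases, higher in 4 and not called in 14, with a median of -0.067. Thymidylate synthase (TYMS) differed by -0.83 and thymidine kinase (TK1) by -0.82, and CDT1 was 0.42 higher. Of 25 CDK inhibitors and quiescence genes 16 were higher and none lower, with a median of 0.23. CCNG2 was at 26.5, 26.6 and 26.7 FPKM in YAP1 KO cells, against 17.4, 18.2 and 18.8 FPKM in CTRL cells, a difference of 0.53 (SE 0.063, adjusted p = 2.25e-05), FOXO3 was 0.49 higher and HES1 0.60 higher. CDKN1A (p21) was at 78.9, 88.3 and 121 FPKM in YAP1 KO cells, against 64.5, 73.8 and 117 FPKM in CTRL cells, with overlapping groups, and was not called (0.20, adjusted p = 0.412, and 0.024, adjusted p = 0.925, without CTRL replicate 1).

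Metabolic and stress genes also differed. Cholesterol biosynthesis and uptake genes were lower in 17 of 25 cases and higher in 2. The sterol synthesis gene HMGCS1 was at 9.03, 9.16 and 9.28 FPKM in YAP1 KO cells, against 15.8, 14.7 and 16.0 FPKM in CTRL cells, a difference of -0.70 (SE 0.049, adjusted p = 2.08e-07), and SQLE differed by -0.53. Under DMSO 2 of the 25 were lower and 1 higher, and 11 were called as lower in the difference between treatments. Integrated stress response genes were higher in 12 of 20 cases and lower in 3, with a median of 0.29. CHAC1, which degrades glutathione, was at 41.8, 44.5 and 37.1 FPKM in YAP1 KO cells, against 23.2, 24.4 and 20.9 FPKM in CTRL cells, and DDIT4, an inhibitor of mTORC1, at 274, 284 and 279.5 FPKM in YAP1 KO cells, against 170.4, 183 and 186 FPKM in CTRL cells. Neither overlapped, with differences of 0.82 and 0.63. Under DMSO 10 of these 20 were lower in YAP1 KO cells and 1 higher, and 13 were called as higher in the difference between treatments. CHAC1 was -0.60 under DMSO (adjusted p = 0.0224) and differed by 1.41 between the treatments.

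Interferon-stimulated genes were higher in 17 of 37 cases and lower in 5, with a median of 0.085. OAS1, an antiviral synthetase, was at 18.2, 18.2 and 18.2 FPKM in YAP1 KO cells, against 10.8, 11.7 and 10.9 FPKM in CTRL cells, a difference of 0.66 (SE 0.076, adjusted p = 1.9e-05), and RSAD2 (viperin) was 0.64 higher, whereas IFI27 and IFI6 were -0.69 and -0.62. Under DMSO 13 of the 37 were lower and 4 higher, and the difference between treatments was called as higher in 16 and as lower in none. Lysosome and autophagy genes were higher in 10 of 29 cases and lower in 3, near the shares of all rows (28.4% and 16.5%). These counts became 6 and 6 after median-of-ratios scaling, and TFEB, the master regulator of lysosomal genes, was 0.54 higher. Glycolysis genes were lower in 8 of 22 cases and higher in 3, with ENO1 at 364, 362 and 366 FPKM in YAP1 KO cells, against 499.8, 524 and 512 FPKM in CTRL cells, a difference of -0.49. Without CTRL replicate 1 these counts were 10 and 6. Ribosome biogenesis genes were lower in 9 of 28 cases and higher in none, with NOP56 at -0.46. p53 target genes were higher in 3 of 17 cases and lower in 2, with the kinase gene PLK2 at 13.8, 12.8 and 13.0 FPKM in YAP1 KO cells, against 39.8, 41.1 and 41.1 FPKM in CTRL cells, a difference of -1.55 (SE 0.051, adjusted p = 2.6e-10), and TP53INP1 0.64 higher. Without CTRL replicate 1 the p53 counts were 2 higher and 4 lower. Of 13 immune cell markers 4 were tested, 3 higher and 1 lower, and their summed levels of 113 to 116 FPKM in YAP1 KO and 88.0 to 91.0 FPKM in CTRL libraries were mostly CD68, a lysosomal protein gene (0.36). Neither tested endothelial marker of 8 was called.

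The 2-fold sets were then followed into the other libraries. The HCC4006 DMSO libraries entered the shared estimate of the spread that helped to call these sets, and the PC9 libraries did not. Of the 202 rows at least 2-fold lower under OT, 140 were also lower under DMSO (69.3% of the 202 and 12.9% of the 1089 rows lower under DMSO), 62 were not called there and none was higher. Their median difference was -1.29 under OT and -0.42 under DMSO. Over all rows tested, 8.67% were lower and 9.01% higher under DMSO. Of the 61 rows at least 2-fold higher under OT, 22 were also higher under DMSO (36.1% of the 61 and 1.95% of the 1131 rows higher under DMSO), 2 were lower and 37 were not called. Their medians were 1.24 and 0.21. In PC9 under OT, where 26.5% of 11255 rows were higher and 23.3% lower (49.8% in all), 149 of the 202 rows were measured, of which 93 were lower and 19 higher, with a median of -0.35. Of the 61, 41 were measured, with 29 higher and 2 lower and a median of 0.50. LRRN1 was among those that went the other way, -2.86 in HCC4006 and 0.85 in PC9 (difference -3.71, adjusted p = 1.85e-14).

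The genotype difference itself depended on the treatment in 19.2% of rows, with 1379 higher (11.0%) and 1027 lower (8.18%) under OT than under DMSO. By at least 2-fold, 51 were higher (0.406%) and 99 lower (0.788%). After median-of-ratios scaling the counts were 1033 higher and 1169 lower, a share of 46.9% higher in place of 57.3%. NUPR1, a stress-induced nuclear protein gene, had the highest such difference among named rows. It was at 708, 731 and 713 FPKM in YAP1 KO cells, against 475, 613 and 623 FPKM in CTRL cells under OT, and at 6.44, 4.78 and 5.15 FPKM in YAP1 KO cells, against 23.4, 25.5 and 21.0 FPKM in CTRL cells under DMSO. The OT difference of 0.34 (adjusted p = 0.0225) lost its call without CTRL replicate 1 (0.22, adjusted p = 0.0759), without YAP1 KO replicate 2 or 3 (adjusted p = 0.0626 and 0.0510) and after median-of-ratios scaling (0.28, adjusted p = 0.0591), while the DMSO difference was -1.92 and the treatments differed by 2.26 (adjusted p = 1.01e-06). The water channel gene AQP3 was at 9.54, 9.48 and 8.77 FPKM in YAP1 KO cells, against 3.08, 3.21 and 2.98 FPKM in CTRL cells under OT, 1.33 higher in YAP1 KO cells, and -0.59 under DMSO. SPINK1, a trypsin inhibitor gene, was not called under OT (0.055) and was -1.76 under DMSO. The lowest differences between treatments were in SNAR-G1 (-6.21), CTGF (-2.80), MINOS1-NBL1 (-2.40), KRT4 (-2.35) and CYR61 (-2.10). KRT4 was under 1 FPKM in every DMSO library, where the scale understates a genotype difference. MINOS1-NBL1 is a readthrough row that shares exons with NBL1, whose own row was 1.39 higher under OT, and both are uncertain.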

How the data were processed

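Messenger RNA was sequenced in 24 libraries of HCC4006 and PC9. RNA was taken up in TRIzol, per the labels' protocols. The values used are FPKM as deposited by the authors, 25365 rows named by gene symbol with a column for each library. STAR 2.5.1b, Cufflinks 2.2.1 and DESeq2 1.10.1 and the builds hg19 and GRCh37 are named without roles, per the submitters' processing notes. The gene annotation behind the rows is not stated there. Since FPKM is a normalized unit, count models were not applied. Absolute depth is unknown, and a relative depth was estimated from the step sizes of low rows. A low FPKM rests on few reads and is less precise.

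Columns were matched to samples by name, and the untreated columns were taken as the DMSO samples. Levels were tested as log2(FPKM + 1) with limma 3.58.1 in R 4.3.3, with an intensity trend, group means over the 12 HCC4006 libraries (8 residual degrees of freedom) and Benjamini-Hochberg adjustment over 12557 rows. The difference between treatments was a contrast of that fit. The difference between lines came from 1 fit of all 24 libraries over 11255 rows that also reached 1 FPKM in 3 of the 6 PC9 OT libraries. The procedure was checked on simulated data. No batch is given in the labels.

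Named genes were YAP1, the 10 highest and 10 lowest called rows, up to 4 called members with the largest differences in each of 36 gene lists, the 22 signature genes, a short set of pathway genes whatever their result, and the 5 highest and 5 lowest called differences between treatments, with 65 short RNA rows and 20 rows with date-like symbols left unnamed. Short RNA rows were recognized by symbol prefixes that do not cover SNAR, so SNAR-G1 and SNAR-B1 stayed among the named rows. Other list members were named after their values were seen, and some genes that the rule names are not reported here. The members and lists were chosen with earlier results of these data known. Lists are described by counts and medians without a set test. Alternatives covered the pseudocount, the filter, the scaling, the trend, the libraries in the fit, a replicate block and each library left out. Promoter windows are from RefSeq, matched by symbol or synonym, and their coordinates are not those of the authors' build.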

Additional observations from a re-analysis of the deposited data

Results flagged for a closer look

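The genotype difference (YAP1 KO minus CTRL, log2 of FPKM + 1) differed between OT and DMSO by its own limma contrast for 33 of the genes examined for it. Each value is the OT difference minus the DMSO difference, with an adjusted p under 0.05. The targeted gene YAP1 stood at 0.67. Among YAP/TEAD signature genes the values were -2.80 for CTGF, -2.10 for CYR61, -1.71 for F3, -1.56 for TGFB2, -1.18 for FJX1, -1.14 for GADD45A, -1.12 for AXL, -1.07 for AMOTL2, -0.91 for NT5E, -0.88 for ANKRD1, -0.78 for ASAP1, -0.72 for CRIM1, -0.70 for DOCK5, -0.66 for MYOF, -0.57 for NUAK2 and -0.55 for IGFBP3. Among apoptosis genes they were 0.76 for BMF, 0.55 for BCL2L11 and -0.71 for BCL2L1. The receptor gene MET stood at -1.24, the cyclin gene CCND1 at -0.74, the proliferation marker MKI67 at -0.74, the EMT factor SNAI2 at -0.68 and TEAD1 at -0.42. The rows with the highest values were NUPR1 at 2.26, CALML5 at 1.98, CLEC7A at 1.93, AQP3 at 1.92 and SPINK1 at 1.81. Beside CTGF and CYR61, the lowest were SNAR-G1 at -6.21, MINOS1-NBL1 at -2.40 and KRT4 at -2.35. CALML5, CLEC7A and KRT4 were under 1 FPKM in every DMSO library, where this scale understates a genotype difference. Mean DMSO levels in YAP1 KO and CTRL cells were 0.0912 and 0.0281 FPKM for CLEC7A and 0.138 and 0.346 FPKM for KRT4.

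The genotype difference under OT differed between HCC4006 and PC9 for 21 genes, given as HCC4006 minus PC9. It was 0.35 for YAP1, so the decrease of the targeted gene was smaller in HCC4006. For signature genes it was -2.36 for CTGF, -1.58 for CYR61, -1.45 for F3, -1.30 for GADD45A, -0.93 for AMOTL2, -0.79 for CCDC80, -0.75 for AXL, -0.69 for TGFB2, -0.68 for CRIM1, -0.59 for MYOF, -0.53 for IGFBP3, -0.48 for NT5E and -0.40 for ASAP1. BMF stood at -1.28, BCL2L1 at -0.22, MET at -1.21, SNAI2 at -0.62, TEAD2 at -0.70, MYC at -0.34 and CDKN1A at -1.11. The YAP1 KO columns carry a different, unexplained tag in each line, so cell line and knockout cannot be told apart here. The causes of these differences were not tested.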

How the results depend on the processing

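The direction of called differences held for genes named by the rule in every alternative run, and the genes whose sign turned were never called as reported. At least 2-fold calls depended on the pseudocount: with 0.1 in place of 1 FPKM, the comparison under OT gave 147 higher and 329 lower, the difference between treatments 145 and 173 and that between lines 156 and 278. With 0.01 these were 146 and 338, 153 and 172, and 167 and 288. Without a filter the lines differed by at least 2-fold upward in 141 rows, and with a minimum of 5 FPKM in 50 upward and 85 downward, since fewer rows were tested. With each library left out in turn, the comparison under OT gave 2966 to 3666 higher and 1797 to 2442 lower calls (58 to 71 and 195 to 204 by at least 2-fold), the difference between treatments 1034 to 1621 and 843 to 1358 (51 to 59 and 96 to 105), and that between lines 2642 to 2966 and 1762 to 2147 (76 to 86 and 176 to 188). YAP1 ranged from -1.27 to -1.14, 0.60 to 0.74 and 0.28 to 0.41 in the 3. Without CTRL replicate 1 the YAP/TEAD signature had 20 of 21 members lower and G2/M genes 20 of 29 lower and 1 higher, while pro-apoptotic genes had 3 higher and 2 lower, MAPK outputs 2 and 5 and lysosome genes 11 and 5, an alternative chosen after seeing the data. Median-of-ratios scaling gave 5 of 9 YAP, TAZ, TEAD and VGLL factors lower, and higher and lower counts of 3 and 16 for Hippo genes, 3 and 22 for matrix genes, 1 and 17 for cholesterol genes and 3 and 4 for p53 targets. Same-numbered YAP1 KO and CTRL libraries under OT shared little (correlations of deviations 0.0893, 0.0513 and 0.0265, with the own number best in 3 of 6 cases), so numbers do not pair the genotypes. Same-numbered CTRL libraries under OT and DMSO correlated at 0.249, 0.252 and 0.188, and YAP1 KO libraries at 0.0565, -0.0746 and -0.155. Libraries of unlike number were not compared between the treatments, so a pairing there was not tested. A replicate block gave 3607 higher and 2089 lower under OT, 1329 and 1004 between treatments and 2910 and 1994 between lines, and among named genes it changed only calls under OT, with TEAD1 and BBC3 called (adjusted p = 0.0395 and 0.0337) and SNAR-B1 not (adjusted p = 0.0555). Signs turned as follows, with the cause not tested. For the comparison under OT, MCL1 was 0.0013 (-0.055 with median-of-ratios scaling, -0.012 to 0.021 with a library left out) and SPINK1 was 0.055 (-0.0021 with median-of-ratios scaling, -0.079 to 0.13 with a library left out). FOXF2 was 0.014 (-0.021 with median-of-ratios scaling, -0.087 to 0.082 with a library left out) and TEAD3 was -0.065 (-0.14 to 0.051 with a library left out). For the difference between treatments, CCDC80 was -0.17 (0.092 with pseudocount 0.1, 0.13 with pseudocount 0.01, -0.21 to -0.10 with a library left out) and MCL1 was 0.037 (-0.0049 with median-of-ratios scaling, 0.018 to 0.062 with a library left out). FOXF2 was 0.021 (-0.0025 with median-of-ratios scaling, -0.0036 with equal sums, -0.080 to 0.089 with a library left out) and TEAD2 was -0.041 (-0.096 to 0.0053 with a library left out). CDKN1A was -0.048 (-0.23 to 0.20 with a library left out). For the difference between lines, TEAD4 was 0.033 (-0.024 with pseudocount 0.1, -0.031 with pseudocount 0.01, -0.00501 with equal sums, -0.038 to 0.13 with a library left out) and NUAK2 was -0.037 (0.39 with pseudocount 0.1, 0.48 with pseudocount 0.01, -0.12 to 0.0076 with a library left out). VGLL4 was 0.027 (-0.012 with median-of-ratios scaling, -0.0054 with equal sums, -0.0088 to 0.070 with a library left out) and WWTR1 was -0.00995 (-0.049 to 0.034 with a library left out). TEAD1 was -0.0056 (-0.065 to 0.11 with a library left out) and BCL2L11 was -0.098 (-0.16 to 0.00702 with a library left out). TEAD3 was -0.11 (-0.19 to 0.0033 with a library left out) and EGFR was -0.17 (-0.33 to 0.12 with a library left out). ARHGEF17 was -0.13 (-0.26 to 0.047 with a library left out). The FPKM give no absolute depth, so no limit for a level of 0 can be given.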

Other observations

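Some genes named above differed in direction between the lines under OT, YAP1 KO minus CTRL on the log2(FPKM + 1) scale, and they were picked after their values were seen. The death-associated kinase gene DAPK1 was 0.51 in HCC4006 and -0.68 in PC9, and the lines differed by 1.18 (limma, adjusted p = 6.95e-11). The inhibitor of apoptosis gene BIRC3 was 0.35 in HCC4006 and -0.37 in PC9 (difference 0.72, adjusted p = 3.15e-05), and BIRC2 was 0.41 and -0.22 (difference 0.63, adjusted p = 2.58e-05). The opposite order was seen for the tight junction gene CLDN1, at -0.75 in HCC4006 and 0.40 in PC9 (difference -1.15, adjusted p = 9.37e-10), for the fibronectin receptor gene ITGA5, at -0.82 and 0.54 (difference -1.36, adjusted p = 3.31e-11), and for the cytokine gene IL11, at -0.89 and 0.39 (difference -1.28, adjusted p = 1.91e-07).

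In other genes the decrease had the same direction in both lines and was smaller in HCC4006. Ribonucleotide reductase RRM2 was -0.60 in HCC4006 and -1.61 in PC9 (difference 1.01, adjusted p = 9.44e-06) and the sterol enzyme gene SQLE was -0.53 and -1.18 (difference 0.65, adjusted p = 3.13e-06). The decrease in EPHA2 (-1.75 and -1.64) was not called as different between the lines (adjusted p = 0.254).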
